A study of Saccharomyces cerevisiae with 2 samples.

Results

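Aminoacyl-tRNA synthetases are the enzymes that join each amino acid to its tRNA, and *S. cerevisiae* carries a cytosolic and a mitochondrial complement of them. The genes described here are 31 synthetase genes of a fixed list, 18 cytosolic and 13 mitochondrial. They were found by the gene symbol that the platform annotation gives to a probe set. They were 31 of 5449 *S. cerevisiae* genes measured, and each had 1 probe set of its own. Cells of the strain BY4742, a haploid of mating type alpha with the alleles his3Delta1, leu2Delta0, lys2Delta0 and ura3Delta0, were cultured in yeast extract (1%) and peptone. The DR medium held 0.5% glucose and the AL medium 2.0% glucose. Cultures were started at an OD600 of 0.01 and reached 0.85 to 0.99 after 12 hours at 30°C. There was 1 array (Affymetrix GeneChip Yeast Genome 2.0) for each medium, so no difference given here has an estimate of error, and no test was run.

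A synthetase first activates its amino acid with ATP and then transfers it to the matching tRNA. The enzymes fall into class I and class II, which have unrelated catalytic folds. All mitochondrial synthetases of yeast are encoded in the nucleus and imported, and they charge the tRNAs that translate the few mitochondrial messages, most of which encode subunits of the respiratory chain and ATP synthase. Most amino acids have a separate gene for each compartment. For some, a single gene supplies both, as with *ALA1*, *GRS1*, *HTS1* and *VAS1*, which the rule counts as cytosolic. Uncharged tRNA is what the kinase Gcn2 senses in the general control of amino acid synthesis.

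Values are linear signals normalized by the authors' service laboratory, and a ratio is the signal on the DR-labelled array over that on the AL-labelled array. The direction of these ratios, which follows the deposited labels, opposes the study's. With the labels exchanged, every log2 ratio would keep its size and change its sign, so the text keeps to the label of each array. Of all genes, 20.5% were at least 2-fold higher on the DR-labelled array and 24.4% at least 2-fold higher on the AL-labelled array, and the median log2 ratio over all of them was −0.12. RNA came from whole cultures, so a change in some cells and a change of the level in every cell cannot be told apart.

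Genes that this strain lacks or that alpha cells keep silent gave a background, taken as the highest signal among 10 of them: 129.4 on the DR-labelled array and 281.6 on the AL-labelled array, both from *STE6*, the a-factor exporter. The alpha-specific genes *MF(ALPHA)1*, *MF(ALPHA)2* and *STE3* were well above it on the DR-labelled array (5174 to 6158), and were 5.92-fold, at least 18.4-fold and 8.31-fold higher there than on the AL-labelled array. The bound is for *MF(ALPHA)2*, whose signal on the AL-labelled array (222.6) lay under the background and was raised to it. The array also carries 13 probe sets whose symbol is a synthetase's name in lower case and whose gene lies outside the *S. cerevisiae* table. Their signals were at most 12.4 on the DR-labelled array and 25.9 on the AL-labelled array, under every signal of the 31 synthetases.

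The cytosolic synthetases of the rule were higher on the DR-labelled array without exception. Of the 18 genes, 16 were at least 2-fold higher there, against 20.5% of all genes, and 0 were at least 2-fold higher on the AL-labelled array. Their median log2 ratio was 2.16, a 4.46-fold difference, beside −0.12 for all genes. The mitochondrial synthetases were divided: 6 of 13 were higher on the DR-labelled array and 7 on the AL-labelled array, with 3 and 1 of them past 2-fold and a median log2 ratio of −0.42. For all genes, 45.6% were higher on the DR-labelled array and 54.3% on the AL-labelled array. At 2-fold, the 1 mitochondrial gene higher on the AL-labelled array stands beside 24.4% of all genes. The 3 higher on the DR-labelled array became 0 with signals raised to background. The AL-labelled array has the higher background, and the same treatment moved the median log2 ratio of all genes from −0.12 to −0.39.

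**Figure D1:**
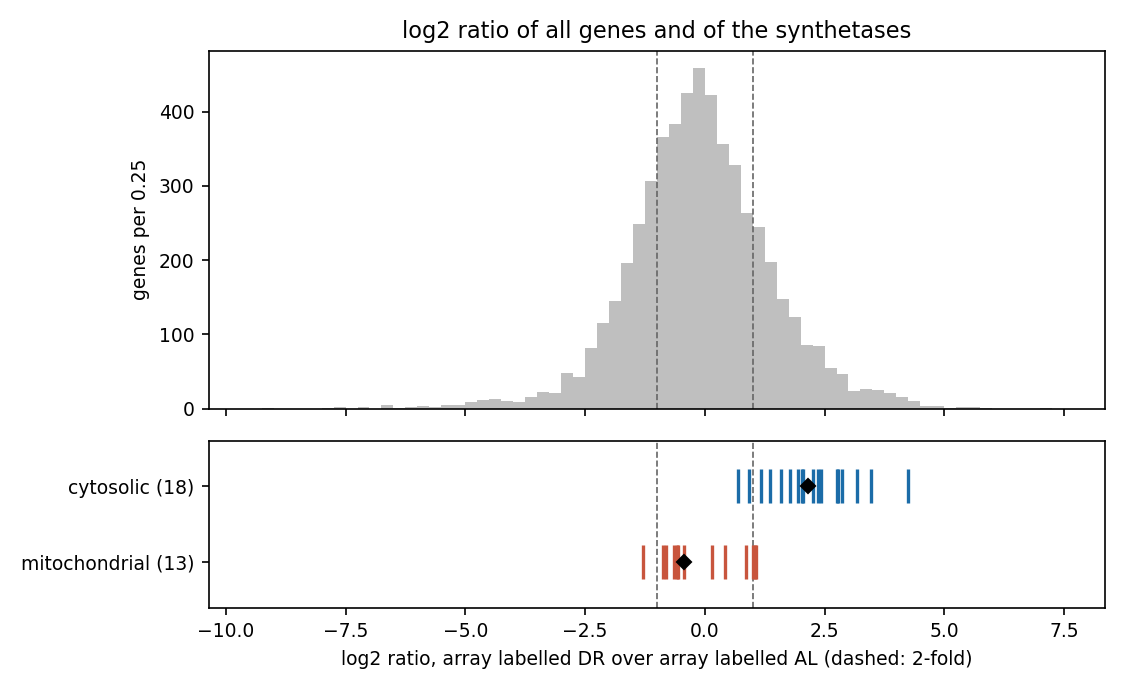
Histogram of the log2 ratio (DR-labelled array over AL-labelled array) of all 5449 genes, in bins of 0.25, above the log2 ratios of the 18 cytosolic and 13 mitochondrial synthetases (1 tick a gene, diamonds at the medians, dashed lines at 2-fold). The cytosolic ticks run from 0.69 to 4.25 (*WRS1*, whose signal on the AL-labelled array is under background) and the mitochondrial ticks from −1.30 to 1.07.

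The sets met only at their edges. The lowest cytosolic log2 ratio was 0.69 and the highest mitochondrial one was 1.07, so 16 cytosolic genes lay above every mitochondrial gene. *GLN4* and *MES1* were the cytosolic genes at or under the highest mitochondrial ratio, and 4 mitochondrial genes (*MSF1*, *MSE1*, *NAM2* and *MSW1*) lay above *GLN4*. The signals of these 4 on the AL-labelled array were under background, and with signals raised to it 1 of them, *MSF1*, lay above *GLN4*. Past 3-fold were 14 cytosolic genes, where 11.5% of all genes were higher on the DR-labelled array and 12.7% on the AL-labelled array. Among all genes ordered from the highest ratio of the DR-labelled over the AL-labelled array, 13 cytosolic synthetases and 0 mitochondrial ones stood in the first 10%, which would be the last 10% with the labels exchanged. Signals of the cytosolic set ran from 2167 to 6945 on the DR-labelled array (median 4316) and from 125.2 to 3097 on the AL-labelled array (median 1009). Those of the mitochondrial set ran from 209.5 to 1317 (median 330.4) and from 156.7 to 980.5 (median 397).

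**Figure D2:**
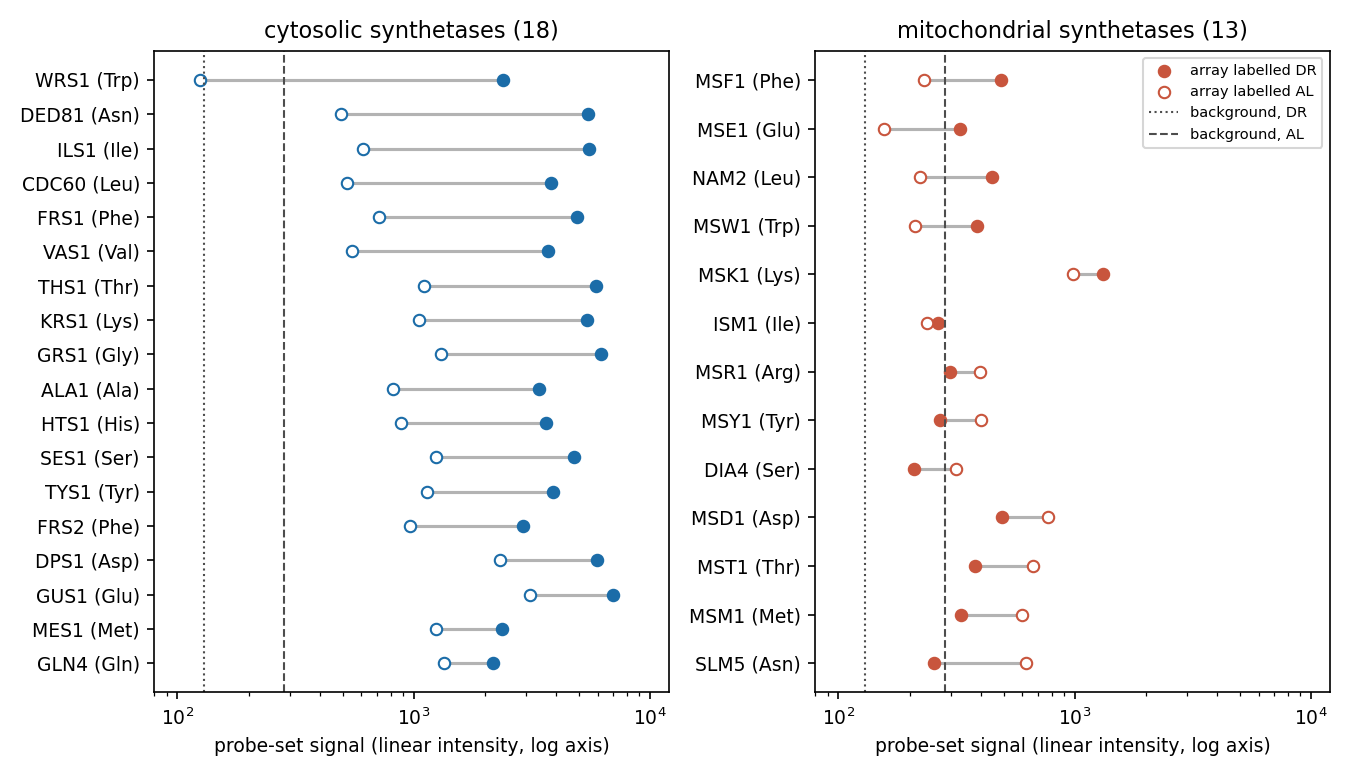
Signals (linear intensity on a log axis) of the 18 cytosolic and 13 mitochondrial synthetases on the DR-labelled array (filled) and the AL-labelled array (open), ordered by ratio, with the amino acid in parentheses and the background of each array as a vertical line. Every filled point of the cytosolic panel lies to the right of its open point, while in the mitochondrial panel this holds from *MSF1* to *ISM1* and turns from *MSR1* to *SLM5*.

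*WRS1*, the tryptophanyl-tRNA synthetase, had a signal of 2377 on the DR-labelled array and 125.2 on the AL-labelled array. The latter lay under that array's background, and with it raised to background *WRS1* was at least 8.44-fold higher on the DR-labelled array. Its place among the genes with the highest ratios is therefore not settled.

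The asparaginyl-tRNA synthetase gene *DED81* had 5487 on the DR-labelled array and 494.8 on the AL-labelled array, a ratio of 11.1. *ILS1*, for isoleucine, had 5543 and 608.3, a ratio of 9.11. With signals raised to background, these were the highest ratios of the cytosolic set, and together with *WRS1* they were its 3 genes past 8-fold. As deposited, 2.15% of all genes had a higher ratio than *ILS1*. *CDC60*, the leucyl-tRNA synthetase, which also reports leucine to TORC1 through the GTPase Gtr1, had 3804 and 524.4, a ratio of 7.25.

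The phenylalanyl-tRNA synthetase is built from different subunits, and these did not stand at the same ratio. *FRS1*, the beta subunit, had a signal of 4926 on the DR-labelled array and 714.4 on the AL-labelled array, a ratio of 6.90. *FRS2*, the alpha subunit, had 2903 and 967.5, a ratio of 3.0. Both were past 2-fold in the same direction.

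The 4 genes counted here as supplying both compartments stood with the cytosolic set. *VAS1*, for valine, had a signal of 3697 on the DR-labelled array and 547.8 on the AL-labelled array, a ratio of 6.75. *GRS1*, for glycine, had 6230.3 and 1304, a ratio of 4.78. *ALA1*, for alanine, had 3392 and 816.3 and *HTS1*, for histidine, had 3629 and 885.7, with ratios of 4.15 and 4.10. All 4 were past 2-fold on the DR-labelled array, where the share of all genes was 20.5%. Their median log2 ratio was 2.16, beside 2.15 for the 14 other cytosolic genes. The 14 include *GUS1*, whose product also serves mitochondria but which has a mitochondrial counterpart, *MSE1*. Each of the 4 lay above the range of the mitochondrial set.

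*THS1*, for threonine, had 5937 on the DR-labelled array and 1108 on the AL-labelled array, a ratio of 5.36. *KRS1*, for lysine, had 5393 and 1051, a ratio of 5.13. *SES1*, for serine, had 4763 and 1241, a ratio of 3.84. *TYS1*, for tyrosine, had 3868 and 1135, a ratio of 3.41. These genes fill the middle of the cytosolic order.

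At the lower end were *DPS1*, for aspartate (5974 and 2313, a ratio of 2.58), *GUS1*, for glutamate (6945 and 3097, a ratio of 2.24), *MES1*, for methionine (2366 and 1249, a ratio of 1.89), and *GLN4*, for glutamine (2167 and 1342, a ratio of 1.61). *MES1* and *GLN4* were the cytosolic genes within 2-fold. Mes1 and Gus1 form a complex on the tRNA-binding cofactor Arc1. *ARC1* had a signal of 5001 on the DR-labelled array and 1549.5 on the AL-labelled array, a ratio of 3.23, so the gene of the cofactor had a higher ratio than those of both enzymes that it holds.

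The structural classes did not separate the cytosolic genes. The median log2 ratio was 2.26 for the 8 genes of class I and 2.16 for the 10 genes of class II. Log2 ratios of class I ran from 0.69 (*GLN4*) to 4.25 (*WRS1*), the latter being at least 3.08 with its signal raised to background. Those of class II ran from 1.37 (*DPS1*) to 3.47 (*DED81*). All 10 class II genes and 6 of the 8 class I genes were at least 2-fold higher on the DR-labelled array, beside 20.5% of all genes.

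Among the mitochondrial synthetases, *MSF1*, which charges tRNA with phenylalanine as a single chain, had a signal of 485.7 on the DR-labelled array and 230.7 on the AL-labelled array, a ratio of 2.11. *MSE1*, for glutamate, had 326.3 and 156.7, a ratio of 2.08. *NAM2*, the leucyl-tRNA synthetase that also acts in splicing of mitochondrial introns, had 447.9 and 221.8, a ratio of 2.02. These were the 3 mitochondrial genes past 2-fold on the DR-labelled array, the share of all genes being 20.5%. In each the signal on the AL-labelled array lay under that array's background. With it raised to background the ratios were at least 1.72, 1.16 and 1.59. These bounds lie within 2-fold, so whether the genes pass 2-fold is not settled.

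*MSW1*, for tryptophan, had 384.8 on the DR-labelled array and 211.1 on the AL-labelled array, a ratio of 1.82. *MSK1*, the lysyl-tRNA synthetase whose precursor also takes part in import of a cytosolic tRNA into mitochondria, had 1317 and 980.5, a ratio of 1.34. *ISM1*, for isoleucine, had 265.2 and 238.1, a ratio of 1.11. *MSK1* and *ISM1* lay within 1.5-fold, and *MSW1* and *ISM1* were under background on the AL-labelled array.

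The asparaginyl-tRNA synthetase gene *SLM5* was the only mitochondrial gene at least 2-fold higher on the AL-labelled array, where the share of all genes was 24.4%. Its signal was 254.3 on the DR-labelled array and 624.9 on the AL-labelled array, a 2.46-fold difference. *MSM1*, for methionine, had 330.4 and 600.5 (1.82-fold) and *MST1*, for threonine, had 376.7 and 664.9 (1.77-fold). *MSD1*, for aspartate, stood at 493.3 and 768.8 (1.56-fold), and *DIA4*, the seryl-tRNA synthetase, at 209.5 and 314.8 (1.5-fold). *MSY1*, for tyrosine, and *MSR1*, for arginine, were 1.48-fold and 1.34-fold higher on the AL-labelled array, at 269.8 and 400.3 and at 295.9 and 397. All 7 of these genes were above background on both arrays.

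At a threshold of 1.5-fold, 4 mitochondrial genes were higher on the DR-labelled array and 5 on the AL-labelled array, with 4 in between. Of all genes, 29.3% and 35.7% were past it in these directions. The 4 were *MSF1*, *MSE1*, *NAM2* and *MSW1*, all under background on the AL-labelled array. With signals raised to background their ratios were at least 1.72, 1.16, 1.59 and 1.37. Whether *MSE1* and *MSW1* pass 1.5-fold is therefore not settled. By class, the median log2 ratio was 0.16 for the 7 mitochondrial genes of class I and −0.61 for the 6 of class II. The class I median is the value of *ISM1*, whose signal on the AL-labelled array was under background. With that signal raised, the log2 ratio of *ISM1* was at least −0.087. The genes *MSE1*, *NAM2* and *MSW1* of class I and *MSF1* of class II were also under background on that array. The ranges of both classes overlapped, from −0.86 to 1.06 and from −1.30 to 1.07.

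The cytosolic and the mitochondrial enzymes could be set side by side for the 12 amino acids with a gene of the rule in each set. In all 12 the cytosolic gene had the higher log2 ratio, with a median difference of 2.17, which is 4.51-fold. In 6 of the 12 the mitochondrial partner was itself higher on the AL-labelled array, so that one partner was higher on each array.

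The difference was greatest for asparagine, with *DED81* at a log2 ratio of 3.47 and *SLM5* at −1.30, a difference of 4.77 (27.3-fold). *SLM5* had the lowest ratio of the mitochondrial set, and *DED81* had the highest of the cytosolic set once signals were raised to background. For threonine (*THS1* and *MST1*) the difference was 3.24. The differences for tryptophan (*WRS1* and *MSW1*) and isoleucine (*ILS1* and *ISM1*) rest on signals under background: they were 3.38 and 3.03 as deposited and 2.63 and 3.27 with signals raised, so these 3 amino acids have no settled order.

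Serine (*SES1* and *DIA4*, 2.53), tyrosine (*TYS1* and *MSY1*, 2.34) and aspartate (*DPS1* and *MSD1*, 2.01) were pairs whose mitochondrial gene was higher on the AL-labelled array, as was methionine (*MES1* and *MSM1*, 1.78). For lysine (*KRS1* and *MSK1*, 1.93), leucine (*CDC60* and *NAM2*, 1.85) and phenylalanine (the mean of *FRS1* and *FRS2* against *MSF1*, 1.11) both sides were higher on the DR-labelled array.

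Glutamate was the exception in size. *GUS1* and *MSE1* had log2 ratios of 1.17 and 1.06, a difference of 0.11. The order turned after quantile normalization (−0.12) and after removal of the trend of the ratio on signal (−0.012). With signals raised to background the difference was at most 0.95. Gus1 is known to serve mitochondria as well, where it charges the glutamine tRNA with glutamate.

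**Figure D3:**
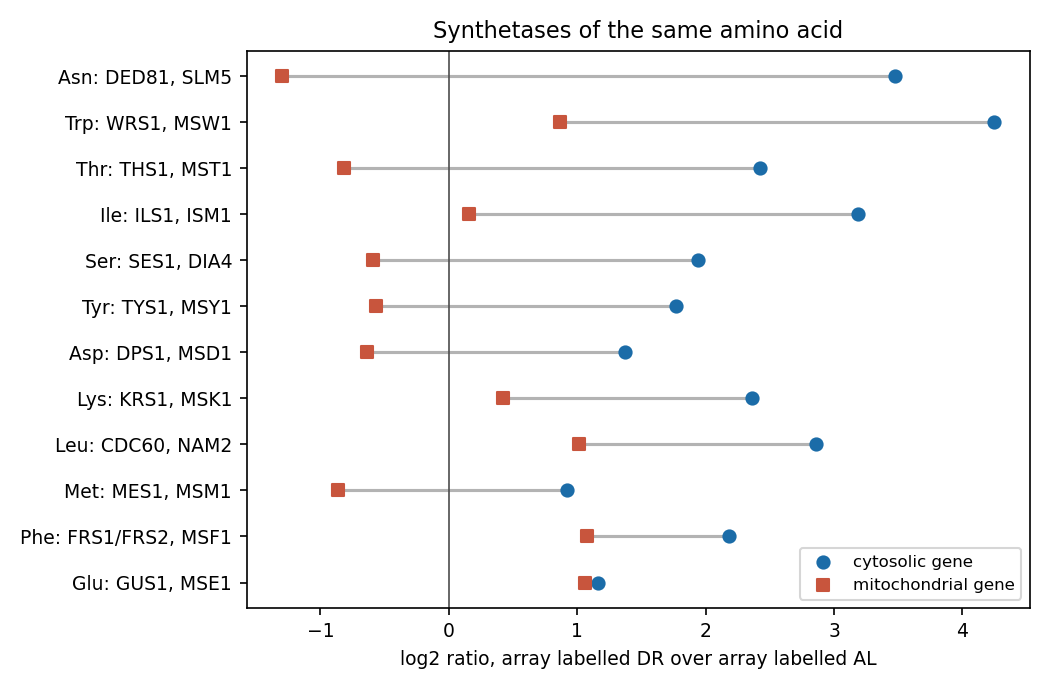
Log2 ratios (DR-labelled array over AL-labelled array) of the cytosolic gene (circle) and the mitochondrial gene (square) for each of 12 amino acids, joined by a line and ordered by their difference. For phenylalanine the circle is the mean of *FRS1* and *FRS2*. Circles lie to the right of squares in all 12, from a difference of 4.77 for asparagine to 0.11 for glutamate.

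Other genes of the same step were read from lists written for this work. Of 5 synthetase genes outside the rule, 4 had a probe set named for them. YDR341C, the cytosolic arginyl-tRNA synthetase, had a signal of 5063 on the DR-labelled array and 867 on the AL-labelled array, a ratio of 5.84. YHR020W, which encodes a prolyl-tRNA synthetase, had 2656 and 390.6, a ratio of 6.80. *AIM10*, whose product resembles prolyl-tRNA synthetases and was set here with the mitochondrial genes, had 683.7 and 379.6, a ratio of 1.80. *GRS2*, the paralog of *GRS1*, was set with the cytosolic genes. Unlike the cytosolic genes of the rule, it was higher on the AL-labelled array, at 415.5 and 520.5 (1.25-fold). With arginine (YDR341C against *MSR1*, a difference of 2.97) and proline (YHR020W against *AIM10*, 1.92) added, the cytosolic gene had the higher log2 ratio in 14 of 14 pairs. YNL247W was not analysed here.

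Yeast mitochondria make glutaminyl-tRNA by converting glutamate that is already on the tRNA, with an amidotransferase encoded by *HER2*, *PET112* and *GTF1*. All of these were higher on the AL-labelled array. *GTF1* had a signal of 428.4 on the DR-labelled array and 1377 on the AL-labelled array (3.21-fold), *PET112* had 180.9 and 303.3 (1.68-fold) and *HER2* had 484.2 and 662.3 (1.37-fold). *FMT1*, which formylates the initiator methionyl-tRNA, had 86.3 and 157.7, both under background. Of the 4 genes, 1 was past 2-fold higher on the AL-labelled array and 0 on the DR-labelled array, beside 24.4% and 20.5% of all genes.

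In the general control pathway, *GCN2*, the kinase that senses uncharged tRNA, had a signal of 631.8 on the DR-labelled array and 668.6 on the AL-labelled array. *GCN1*, which Gcn2 needs for its activation, had 2882 and 689.2, a ratio of 4.18, and its partner *GCN20* had 2905 and 1777, a ratio of 1.635. *YIH1*, an inhibitor of this activation, had 935.4 and 321.6, a ratio of 2.91. *GCN4*, the transcription factor at the end of the pathway, which is regulated mainly at translation, had 6882 and 3762.5, a ratio of 1.83. Of the 5 genes, 2 were past 2-fold higher on the DR-labelled array and 0 on the AL-labelled array, beside 20.5% and 24.4% of all genes.

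Among cytosolic elongation factors, 3 of 8 measured genes were past 2-fold higher on the DR-labelled array and 0 on the AL-labelled array, with a median log2 ratio of 0.82 (all genes 20.5% and 24.4%, median −0.12). *YEF3*, the fungal elongation factor 3, had 9785 on the DR-labelled array and 646.7 on the AL-labelled array, a ratio of 15.1, and *ANB1*, an eIF5A gene, had 376.6 and 95.5, the latter under background. With signals raised to background *ANB1* had a ratio of at least 1.34, and 2 of the 3 calls were left. *TEF2* (elongation factor 1 alpha, on a probe set that its identical copy *TEF1* may share) had 9469.6 and 9597, and *CAM1*, a subunit of its exchange factor, had 3421 and 3834. Mitochondrial translation factors had a median log2 ratio of 0.13, with 2 of 8 past 2-fold higher on the DR-labelled array and 0 on the AL-labelled array, beside the same 20.5% and 24.4%. *MEF1*, a mitochondrial elongation factor, had 1244 and 337.6, and *MRF1*, a release factor, had 710.8 and 264.2, the latter under background. With signals raised to background *MRF1* had a ratio of at least 2.52, and the 2 calls were left. *IFM1*, an initiation factor, had 217.2 and 359.6, and *TUF1*, the mitochondrial EF-Tu, had 3037 and 3224.

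Genes of tRNA processing and export went both ways, with 5 of 23 past 2-fold higher on the DR-labelled array and 7 on the AL-labelled array and a median log2 ratio of −0.03. These counts are near the shares of all genes, 20.5% and 24.4%. With signals raised to background, 1 of the 5 calls and all 7 of the others were left, and 2 more genes passed 2-fold on the AL-labelled array. These 2, and 1 of the 7, were under background on both arrays. Such genes take the ratio of the 2 backgrounds, 0.46, whatever their signals, so these calls do not show a direction. *POP6*, a subunit of RNase P and RNase MRP, had 103.1 on the DR-labelled array, under background, and 904.6 on the AL-labelled array. *RPR2*, another RNase P subunit, had 286.1 and 1197. *RPP1*, also a subunit of RNase P, had 227.2 and 51.1, the latter under background. Its log2 ratio was 2.15 as deposited and at least −0.31 with that signal raised, so its direction is not settled. *TRL1*, the tRNA ligase, had 108 and 16.1, under background on both arrays.

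**Figure D4:**
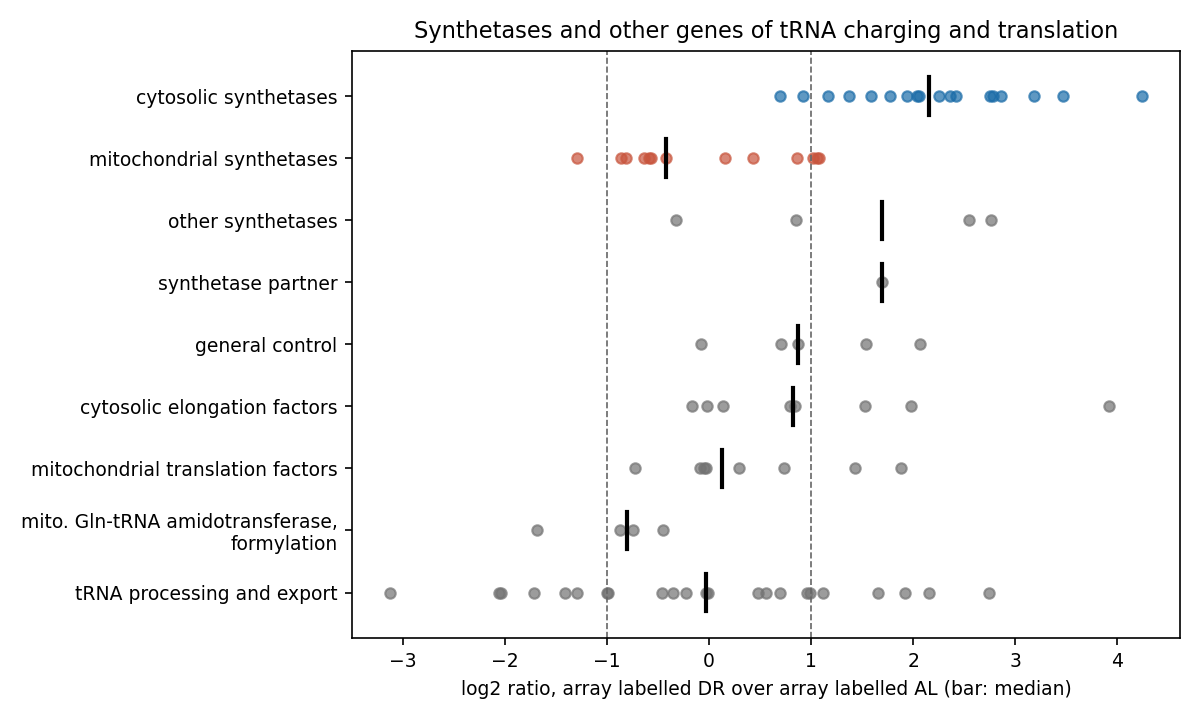
Log2 ratios (DR-labelled array over AL-labelled array) of the cytosolic and mitochondrial synthetases and of 7 further lists of genes, 1 point a gene, with a bar at each median and dashed lines at 2-fold. The medians run from 2.16 for the cytosolic synthetases to −0.81 for the mitochondrial amidotransferase and formylation genes.

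**Figure D5:**
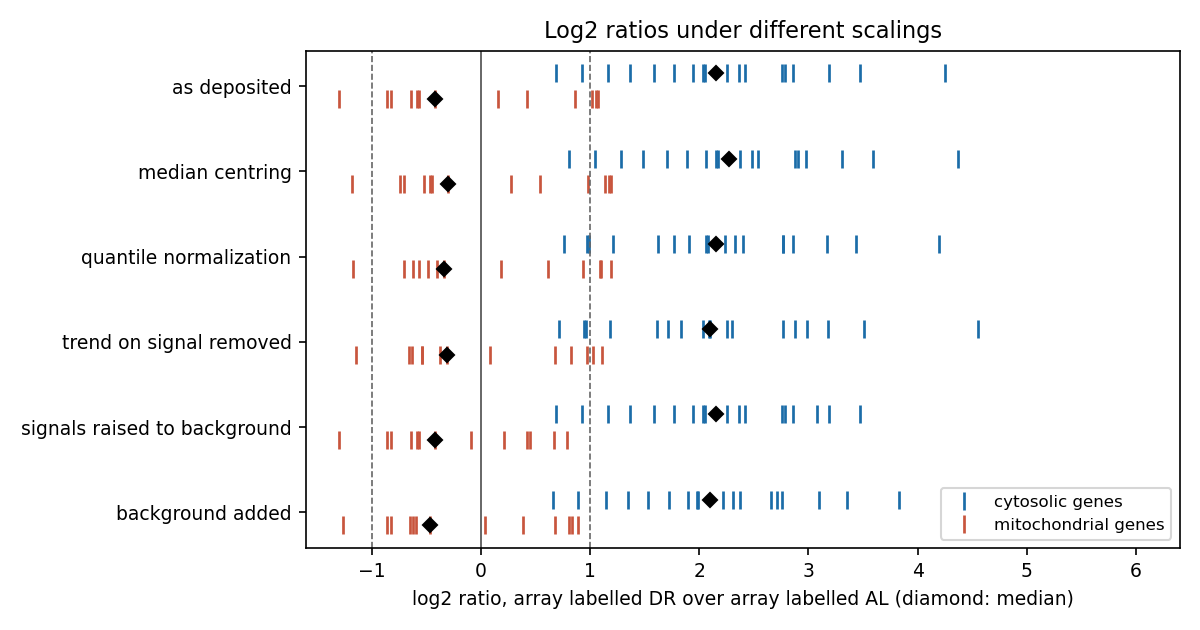
Log2 ratios of the 18 cytosolic and 13 mitochondrial synthetases (1 tick a gene, diamonds at the medians) as deposited and after each of 5 changes in scaling or in the treatment of low signals. Cytosolic medians stay between 2.10 and 2.27 and mitochondrial medians between −0.46 and −0.30.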

How the data were processed

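Total RNA of cells cultured in DR or AL medium was hybridized to GeneChip Yeast Genome 2.0 arrays, 1 array for each medium. The file deposited by the authors holds a linear intensity for each of 10928 probe sets, after normalization with Affymetrix statistical algorithms at a service laboratory. Their version, target level and any scaling between the arrays are not stated in the sources used here. Of the probe sets, 7244 carried 1 gene symbol in the platform annotation, 1 several and 3683 none, and 5498 matched an *S. cerevisiae* gene by gene identifier (RefSeq table, R64). Where a gene had several probe sets, the mean of their log2 signals was used, for 5449 genes in all.

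Counts use the 2-fold threshold of the study's methods. The number of arrays limits the precision. The members and lists were chosen with earlier results of these data known. Genes named are all members, all genes of lists of 5 or fewer, and otherwise the 2 highest and 2 lowest ratios of a list. The background genes and the neighbouring genes described last were not named by this rule. Each member, list and alternative was computed in Python 3.11.15 (numpy 2.4.6, pandas 2.3.3, statsmodels 0.14.6, matplotlib 3.10.9), and the summaries were tested on simulated data. Alternatives were median centring, quantile normalization, lowess removal of the trend on signal (span 0.3), 2 treatments of low signals, a filter on low signals, the brightest probe set, other memberships, and thresholds of 1.5-fold and 3-fold. Planned searches of promoters and alignments of proteins were not run, since no sequence table was used here.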

Additional observations from a re-analysis of the deposited data

How the results depend on the processing

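Across the alternatives, the median log2 ratio of the cytosolic synthetases ran from 2.10 to 2.27, that of the mitochondrial synthetases from −0.46 to −0.13 and the difference of the medians from 2.39 to 2.58. All 18 cytosolic genes stayed higher on the DR-labelled array under each change in scaling or low signals. At 2-fold, the cytosolic count ran from 15 of 18 (*GUS1* under 2-fold, after quantile normalization or removal of the trend) to 17 (*MES1* past it, after median centring). It was 12 of 14 without *VAS1*, *GRS1*, *ALA1* and *HTS1*, and 18 of 21 with the other synthetases added. For the 18 genes of the rule the count past 1.5-fold was 18 and past 3-fold 14. Of all genes, 29.3% and 11.5% were past these thresholds on the DR-labelled array. The mitochondrial calls rest on low signals. With signals raised to background, or with background added, 0 mitochondrial genes in place of 3 were at least 2-fold higher on the DR-labelled array. At 3-fold, 0 were past the threshold in either direction, and at 1.5-fold 5 in place of 1 were higher on the AL-labelled array. The log2 ratio of *ISM1* was at least −0.087 with signals raised to background, so its direction is not settled. The number of amino acids with the higher ratio in the cytosolic gene was 11 of 12 after quantile normalization and after removal of the trend. No paired analysis was possible because each condition had 1 array. The background is the highest of 10 genes and may sit too high, since their median signals were 23.5 and 43.4 on the DR-labelled and AL-labelled arrays.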

Other observations

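For some synthetase genes, the next protein-coding gene upstream is transcribed the other way. The distance between the genes was not checked, so a shared upstream region is not shown. These neighbours were looked at after the values were seen, and the order and strand of genes came from the RefSeq table and the locus tags. Of the 18 cytosolic genes, 14 had such a neighbour with a measured value, and 4 of these neighbours were at least 2-fold higher on the DR-labelled array and 2 on the AL-labelled array, beside 20.5% and 24.4% of all genes. Their median log2 ratio was −0.14, beside −0.12 for all genes. One of the 4, *AIR1* beside *THS1* (216 and 104.9), was under background on the AL-labelled array. Its ratio was at least 0.77 with that signal raised, which left 3. The highest of them was YHR020W, the prolyl-tRNA synthetase gene that faces away from *DED81*, at a ratio of 6.80 (2656 on the DR-labelled array and 390.6 on the AL-labelled array). *ATG31*, an autophagy gene beside *SES1*, had the lowest, with 309.7 and 866. The other neighbour past 2-fold on the AL-labelled array was YGR266W beside *MES1* (827.5 and 1707). The others past 2-fold on the DR-labelled array were *RPS28A* beside *GLN4* (1365 and 638.5) and *REX2* beside *FRS1* (1380 and 689.5). Within 2-fold were, among others, *EHD3* beside *KRS1*, with 923.6 and 1297, and *BEM4* beside *CDC60*, with 213 and 355. Of the 13 mitochondrial genes, 6 had such a neighbour with a measured value, with a median log2 ratio of 0.06. At least 2-fold higher on the DR-labelled array were 2 of the 6, *SMC6* beside *NAM2*, at 461.4 and 125.1, and *CIA1* beside *MSW1*, at 693.6 and 285.1, and 0 were so on the AL-labelled array. The signal of *SMC6* on the AL-labelled array was under background, and its ratio was at least 1.64 with that signal raised. The other 4 (*MLF3*, *SYH1*, *MGR2* and YPL039W) lay within 2-fold, with log2 ratios from −0.68 to 0.24.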
